A study of Mus musculus with 127 samples.

Results

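The proteasome genes were the rows of the expression table whose symbol begins with Psma, Psmb, Psmc, Psmd or Psme followed by a digit. They came to 45 of 24320 gene symbols, and for the 5 with several rows the row with the highest mean level was used. Of the 45, 19 encode the core particle (Psma and Psmb), 17 the base and lid of the regulatory particle, 3 base assembly chaperones with a Psmd symbol and 4 activators, and 2 (Psmc3ip and Psme2b) match by spelling alone. A mean log2(RPKM + 1) of at least 1 over all cells was reached by 37 of the 45. RPKM is a read number scaled to transcript length and to sequencing depth.

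The proteasome is the barrel-shaped protease that degrades proteins tagged with ubiquitin. Its core particle holds the proteolytic sites inside rings of beta subunits, closed at each end by a ring of alpha subunits. The regulatory particle recognises, unfolds and feeds in the substrate: its base carries a ring of ATPases, and its lid removes the ubiquitin chain. In maturing red cells the ubiquitin system clears much of the protein content other than haemoglobin, including unpaired globin chains. Cells of the immune system and cells exposed to interferon exchange the catalytic beta subunits for the immunoproteasome forms, which favour peptides for antigen presentation.

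Single marrow cells of C57BL/6J mice were captured on a microfluidic chip and imaged for Ter119, a surface marker that red cell precursors gain as they mature. Of the 127 cells, 48 came from mice with Flvcr deleted, 48 from wild-type mice and 31 from wild-type mice given EPO (erythropoietin), which stimulates the making of red cells. Flvcr is a heme exporter. Each cell carried the label erythroblast and a class letter from A to D: 18, 16, 9 and 5 Flvcr-deleted cells, 6, 10, 19 and 13 wild-type cells and 7, 11, 9 and 4 EPO-treated cells. The letters do not stand for the same normalised Ter119 value in each group. The labels' medians for A to D were 0.15, 0.381, 0.608 and 0.849 with Flvcr deleted and 0.145, 0.452, 0.643 and 0.823 among wild-type cells. They were 0.0184, 0.0988, 0.281 and 0.556 among EPO-treated cells. In classes B and C the EPO-treated range (0.00064 to 0.197 and 0.00263 to 0.366) did not overlap that of wild-type cells (0.33 to 0.541 and 0.551 to 0.741). The labels give no age, no dose or time of EPO, no driver of the deletion and no animal for any cell. Each group therefore counted as 1 sample, no p-value was computed, and no difference given here has a replicate check. Flvcr-deleted cells came from 1 chip, wild-type cells from another and EPO-treated cells from 2 others (27 and 4 cells), so chip and group cannot be told apart.

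Flvcr1, listed under its older symbol Mfsd7b, was at 0 in all 48 Flvcr-deleted and all 31 EPO-treated cells and in 47 of 48 wild-type cells, so its level does not check the labels. Detection means an RPKM of 1 or more. The number of detected genes had a median of 1069 in Flvcr-deleted, 2422 among wild-type and 1441 among EPO-treated cells, with ranges of 169 to 3452, 1151 to 4047 and 638 to 3982. The median number of reads per cell was estimated at 2.69 M for Flvcr-deleted and 3.98 M for wild-type cells, and those of the EPO-treated cells are unknown because their values were rounded. In class A, Flvcr-deleted cells with the label suffix d (9 of 18) had a median of 343 detected genes. Of 12 erythroid markers, Alas2 and Slc4a1 were not detected in any wild-type class A cell and Klf1 in none of the EPO-treated class A cells, whereas each of the 12 was detected in classes B to D of every group. In classes B to D, Alas2 was at 0 in 4 Flvcr-deleted cells and 1 EPO-treated cell. Because of this, results are also given for classes B to D, and for the cells of these classes with 1000 to 2000 detected genes. The latter are here called depth-matched: 18 wild-type cells, 12 Flvcr-deleted cells and 12 from EPO-treated mice. The match is to a range of detected genes and not by reads. Inside this range the median of detected genes was still lower in Flvcr-deleted and EPO-treated than in wild-type cells. In class B, Flvcr-deleted cells with 833 and 3452 detected genes had an estimated 4.29 M and 3.53 M reads. Classes B and D held 2 and 8 of the wild-type, 4 and 4 of the Flvcr-deleted and 5 and 2 of the EPO-treated cells. Each class counted alike in the group differences, so these rest on few cells.

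The promoter windows of 5 members on which the results below turn are shown, from 250 bases before to 50 after the start of the gene, as given by RefSeq on GRCm38.p6. Psmc4 (chr7:28050043-28050342, minus strand), Psmd2 (chr16:20651402-20651701, plus strand), Psma2 (chr13:14612992-14613291, plus strand), Psmb6 (chr11:70525107-70525406, plus strand) and Psmb8 (chr17:34197945-34198244, plus strand) are written 5′ to 3′ on the strand of the gene. Capitals mark matches on either strand to TGACNNNGC, the core of the antioxidant response element bound by the factors encoded by Nfe2l1 and Nfe2l2, to CCAAT, to GGGCGG and to GATAA. They are shown because Psmc4 and Psmd2 had the largest differences between Flvcr-deleted and wild-type cells, Psma2 was among the core genes that were higher in depth-matched cells, Psmb6 differed between classes with opposite signs in these groups, and Psmb8 was detected in class A alone.
Psmc4: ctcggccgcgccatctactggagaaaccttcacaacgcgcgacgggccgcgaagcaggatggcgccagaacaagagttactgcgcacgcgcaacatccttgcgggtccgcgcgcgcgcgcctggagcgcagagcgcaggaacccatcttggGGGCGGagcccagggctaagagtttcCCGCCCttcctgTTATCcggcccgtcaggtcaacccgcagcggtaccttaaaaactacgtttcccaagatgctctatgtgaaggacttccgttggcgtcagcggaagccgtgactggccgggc
Psmd2: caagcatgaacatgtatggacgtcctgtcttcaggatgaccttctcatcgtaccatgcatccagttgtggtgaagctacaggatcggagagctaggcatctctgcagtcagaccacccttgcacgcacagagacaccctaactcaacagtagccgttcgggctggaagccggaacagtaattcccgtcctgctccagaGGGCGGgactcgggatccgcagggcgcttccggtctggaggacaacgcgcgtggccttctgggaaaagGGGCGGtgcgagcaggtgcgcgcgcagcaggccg
Psma2: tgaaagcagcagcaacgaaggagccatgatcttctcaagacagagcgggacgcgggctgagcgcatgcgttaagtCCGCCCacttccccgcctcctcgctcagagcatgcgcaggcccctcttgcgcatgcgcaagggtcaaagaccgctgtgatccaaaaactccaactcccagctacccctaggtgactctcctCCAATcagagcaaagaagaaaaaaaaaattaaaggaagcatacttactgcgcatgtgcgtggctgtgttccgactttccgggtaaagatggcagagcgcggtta
Psmb6: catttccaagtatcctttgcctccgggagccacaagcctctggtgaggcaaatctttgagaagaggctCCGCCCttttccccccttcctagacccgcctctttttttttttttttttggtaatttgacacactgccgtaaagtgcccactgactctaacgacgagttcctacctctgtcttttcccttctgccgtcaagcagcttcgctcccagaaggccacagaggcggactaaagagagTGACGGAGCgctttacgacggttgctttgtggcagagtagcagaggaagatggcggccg
Psmb8: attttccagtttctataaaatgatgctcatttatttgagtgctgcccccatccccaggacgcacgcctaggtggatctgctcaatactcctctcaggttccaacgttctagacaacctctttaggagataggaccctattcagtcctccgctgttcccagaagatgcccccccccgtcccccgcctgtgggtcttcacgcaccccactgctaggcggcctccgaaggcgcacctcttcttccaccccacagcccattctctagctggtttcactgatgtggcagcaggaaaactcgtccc

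Promoter windows were given for 38 members, of which Psma6, Psmc2 and Psme2 had 2 each. A member counted once, with a match in any of its windows, whereas the shares of all promoters are by window. The shares of members can therefore lie somewhat high beside them. For CCAAT, Psma6 and Psmc2 matched in 1 of their 2 windows. GGGCGG was found in 22 of the 38 (57.9%), against 35.7% of all 32851 promoter windows of this length: in 10 of 14 base and lid promoters, Psmc4 and Psmd2 among them with 2 matches each, and in 6 of 15 core promoters. CCAAT was found in 15 (39.5% against 37.4%), with 8 of the 15 core and 4 of the 14 base and lid promoters. GATAA was found in 8 (21.1% against 25.4%), with 1 core and 5 base and lid promoters, that of Psmc4 included. TGACNNNGC was found in 6 (15.8% against 12.4%), namely Psmb5, Psmb6, Psmc6, Psmd9, Psmd12 and Psme4. The Psmb8 window held none of the 4 motifs. Each motif was searched by itself on both strands, so matches of different motifs may overlap, and a match describes the letters alone. No promoter window was matched for Psma8, Psmb1, Psmb2, Psmb7, Psmc3, Psmd3 and Psmd7.

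Among transcripts other than globin, the median proteasome share lay between 0.991% and 1.41% in each of classes B to D of the 3 groups. Their share of summed RPKM without globin genes had medians of 1.12%, 1.16% and 1.26% in Flvcr-deleted cells of classes B, C and D, of 1.34%, 1.18% and 0.991% among wild-type cells and of 1.41%, 1.30% and 1.33% among EPO-treated cells. Over these classes the shares ran from 0.288% to 1.97% in Flvcr-deleted, from 0.131% to 1.89% among wild-type and from 0.373% to 3.43% among EPO-treated cells, so the groups overlapped throughout. With globin genes in the sum, the medians were 0.283%, 0.121% and 0.0803% in Flvcr-deleted, 0.778%, 0.271% and 0.131% among wild-type and 1.05%, 0.177% and 0.10% among EPO-treated cells. The median share of globin in the same classes was 79.8%, 93.3% and 90.7% in Flvcr-deleted cells, 45.8%, 73.0% and 84.5% among wild-type cells and 45.8%, 70.0% and 92.4% among EPO-treated cells. Its part in the difference was not tested beyond leaving it out of the sum.

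The number of members detected in a cell followed the number of all genes detected. A median of 12 members was detected per Flvcr-deleted cell (0 to 37), 25.5 per wild-type cell (11 to 39) and 15 per EPO-treated cell (2 to 39). With 1000 to 1500 detected genes the medians were 15 over 13 Flvcr-deleted, 16 over 7 wild-type and 12 over 12 EPO-treated cells. With 2000 to 3000 they were 28, 28 and 30 over 5, 19 and 6 cells. Between 1500 and 2000 they were 25.5, 19 and 24 over 4, 11 and 5 cells. Spearman's rho between the counts was 0.95 over 48 Flvcr-deleted, 0.93 over 48 wild-type and 0.90 over 31 EPO-treated cells, as a description of cells that share their depth in both counts.

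**Figure D1:**
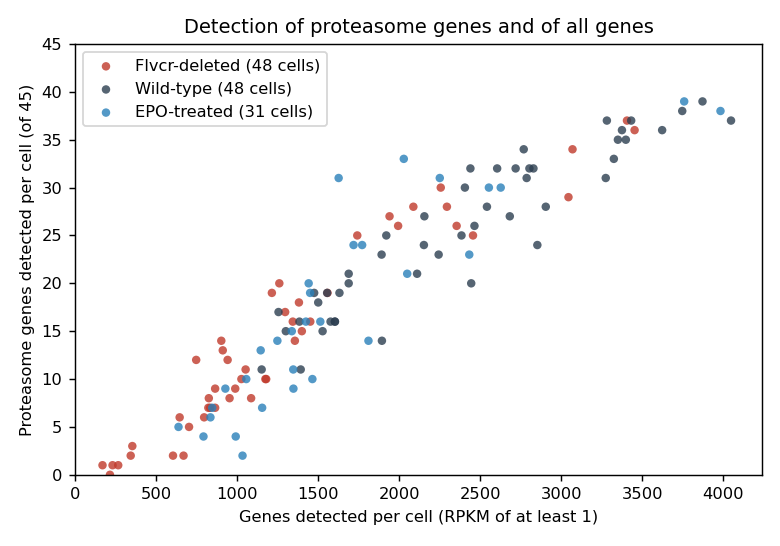
Each point is 1 cell, with the number of genes detected on the x axis, the number of the 45 proteasome genes detected on the y axis and the group by colour. The 3 groups lie along 1 band, with Flvcr-deleted cells reaching down to 169 detected genes and wild-type cells up to 4047.

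Over all cells, most members were listed at lower levels in Flvcr-deleted than in wild-type cells, and the base of the regulatory particle was lower throughout. Differences are of mean log2(RPKM + 1), taken inside each of the 4 class letters, which then count alike in the mean. A gene is called lower or higher where this mean reaches 1 in size and no letter has the opposite sign. By that rule 24 of the 37 members (64.9%) were lower, against 44.6% of the 2540 genes that passed the filter, and 0 were higher, against 0.669%. The median difference was -1.76 over the members and -1.21 over all genes. In classes B to D alone 23 members were lower (48.3% of all genes) and 0 higher (3.74% of all genes), and the medians were -1.61 and -1.08.

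In depth-matched cells the members no longer shared a direction. There 6 of 37 were lower (19.1% of all genes) and 5 were higher (16.0% of all genes), with a median of 0.46 over the members and -0.09 over all genes. The 6 lower members were Psmc1, Psmc5, Psmd5, Psmd11, Psmd12 and Psme3, of which 4 belong to the base or lid. The 5 higher members were Psma2, Psma5, Psmb1, Psmb4 and Psme2, of which 4 belong to the core. The range of detected genes was known from earlier results of these data.

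**Figure D2:**
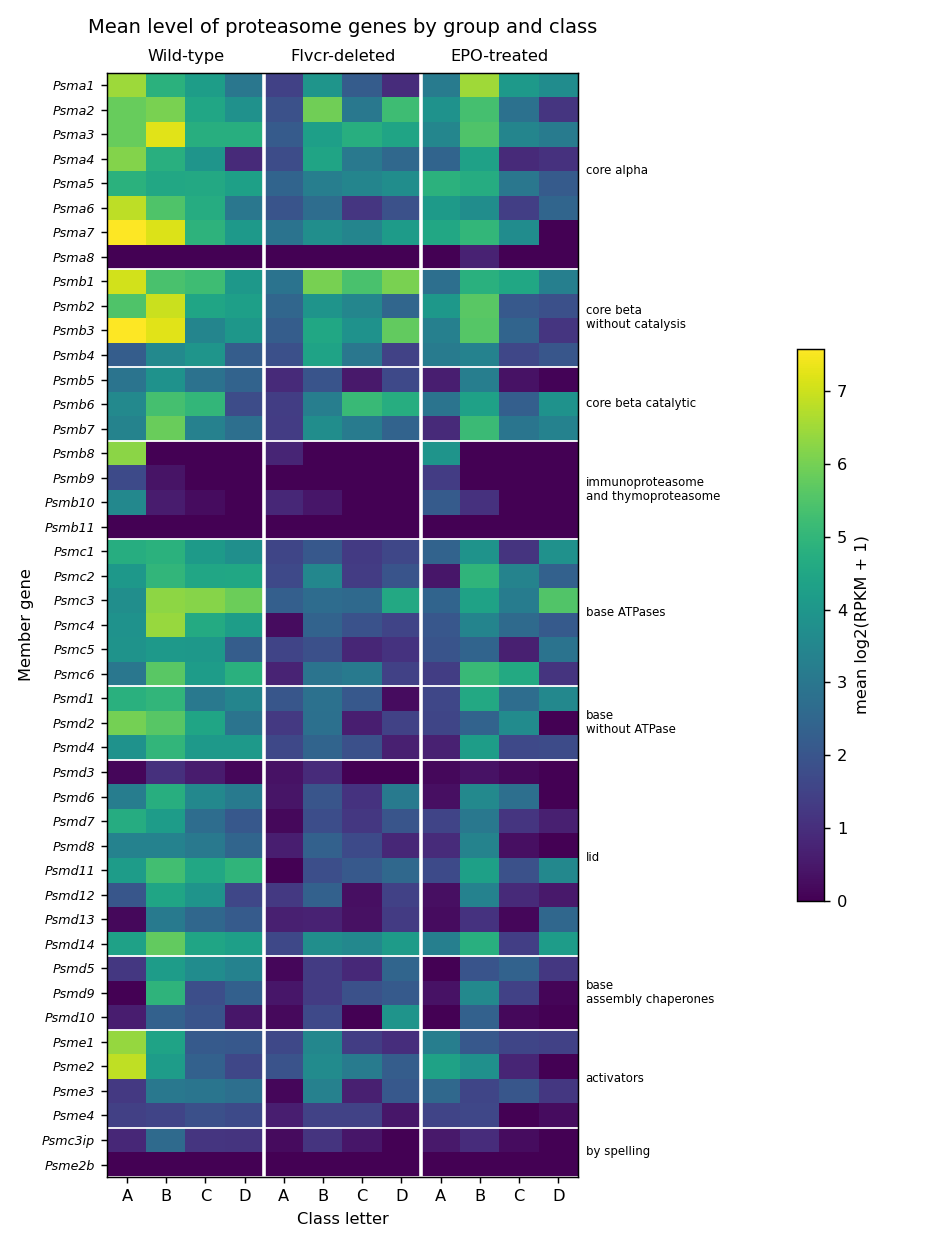
Each cell of the grid is the mean log2(RPKM + 1) of 1 of the 45 proteasome genes (rows, by role) in 1 class letter of 1 group (columns). In wild-type cells Psmc3 has the highest mean of classes B to D (6.13) and in Flvcr-deleted cells Psmb1 (5.84). Of the immunoproteasome genes, Psmb8 is at 0 outside class A, while the mean of Psmb10 over classes B to D is 0.49 in EPO-treated cells.

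Of the 7 alpha ring genes that passed the filter, 4 were lower in Flvcr-deleted cells and 3 were not called, with a median difference of -1.73 over all classes and 1.04 in depth-matched cells. Psma6 had the largest difference of them, -3.07. It was listed at 0 in 30 of 48 Flvcr-deleted cells (highest RPKM 917) and in 13 of 48 wild-type cells (median 60.2, highest 393). By class, Psma6 differed by -4.84 in A, -2.80 in B, -3.51 in C and -1.12 in D, and in depth-matched cells by 0.68, so the direction turned there. Psma3, the alpha gene with the highest mean level, had a median RPKM of 13.3 in Flvcr-deleted cells (0 to 652), 78.4 among wild-type cells (0 to 411) and 31.1 among EPO-treated cells (0 to 294). Its class C means were equal at 4.75 in the first 2 groups, and its difference over the 4 classes was -1.73. Psma2 differed by -1.03 over all classes and by 2.58 in depth-matched cells, where its median RPKM was 139 in 12 Flvcr-deleted cells (0 to 302) and 3.16 in 18 wild-type cells (0 to 344).

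The 4 beta ring genes without an active site had a smaller median difference, -0.91, with 1 called lower. Psmb1 had the highest mean level of all members, and in classes B to D its median RPKM was 108 in Flvcr-deleted (0 to 389), 57.8 among wild-type (0 to 282) and 74.8 among EPO-treated cells (0 to 267). The Flvcr-deleted minus wild-type difference of Psmb1 was -4.18 in class A but 0.63, 0.16 and 2.00 in B, C and D, and 3.12 in depth-matched cells. Psmb2 was the gene called lower, at -2.20: it was at 0 in 26 of 48 Flvcr-deleted cells and in 10 of 48 wild-type cells, with highest values of 1731 and 398. In depth-matched cells Psmb2 differed by -1.15, without the same sign in each class.

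Among the 3 constitutive catalytic genes, Psmb5 and Psmb7 were lower in Flvcr-deleted cells and Psmb6 was not called. Psmb5 carries the chymotrypsin-like activity, the main target of proteasome inhibitor drugs. Psmb5 reached 1 RPKM in 30 of 48 wild-type cells (62.5%, with an exact binomial 95% interval of 47.4% to 76.0%), against 11 of 48 with Flvcr deleted (22.9%, 12.0% to 37.3%) and 9 of 31 after EPO (29.0%, 14.2% to 48.0%). These intervals cover counting error only. Psmb5 differed by -1.76 over all classes and by -0.76 in depth-matched cells. Psmb6, which carries the caspase-like activity, had a median RPKM in classes B to D of 38.6 with Flvcr deleted (0 to 653), 41.8 among wild-type (0 to 326) and 4.15 among EPO-treated cells (0 to 377). Psmb7, with the trypsin-like activity, was detected in 22 of 48, 29 of 48 and 16 of 31 cells in the order Flvcr-deleted, wild-type, EPO-treated. Psmb7 differed by -1.19 over all classes, by -0.90 without class A, where it was not called, and by 0.67 in depth-matched cells.

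Over all cells, the ATPase ring and the scaffolds of the base were lower in Flvcr-deleted cells without exception. All 6 ATPase genes (Psmc1 to Psmc6) were called lower, with a median of -2.44, and so were the 3 other base genes, with a median of -2.62. In depth-matched cells the medians of these lists were -1.09 and -1.04, and 2 of the 9 genes were called lower. Psmc6 turned there, to 0.63. Psmc4 had the largest difference of any member, -3.26, at -3.61, -4.02, -2.73 and -2.69 in classes A to D. Psmc4 was at 0 in 32 of 48 Flvcr-deleted cells (highest 349) and in 10 of 48 wild-type cells (median RPKM 64.8, highest 371). EPO-treated cells lay between, with Psmc4 at 0 in 14 of 31 and a median of 0.2 (highest 536).

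Psmc3 had the highest level of the ATPase genes and was detected in nearly every wild-type cell. Its RPKM in classes B to D was 0, 129.7 and 463 (lowest, median and highest) among wild-type cells, 0, 4.61 and 283 in Flvcr-deleted cells and 0, 19.8 and 984 among EPO-treated cells. Flvcr-deleted cells were thus low in the median while the ranges overlapped. Psmc3 differed by -2.50 over all classes, but by -0.06 in depth-matched cells. Psmd2, a scaffold of the base that binds ubiquitin-like domains, differed by -3.19. Its median RPKM was 0 in Flvcr-deleted (highest 142), 39.7 among wild-type (highest 379) and 0.32 among EPO-treated cells (highest 329), and its depth-matched difference was -0.65. Psmd1, the other large scaffold, differed by -2.29, and Psmd4, a ubiquitin receptor, by -2.62.

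In the lid, 6 of the 7 genes that passed the filter were lower in Flvcr-deleted cells, with a median of -1.68 over all classes and 0.03 in depth-matched cells. Psmd11, a scaffold gene of the lid, differed by -3.12. Psmd11 was at 0 in all 18 Flvcr-deleted class A cells, in 34 of all 48 Flvcr-deleted cells (highest 277) and in 8 of 48 wild-type cells (median 58, highest 349). Psmd11 was also among the lower genes in depth-matched cells, at -1.58. Psmd14 encodes the deubiquitinase of the lid and had the highest mean level of the 7 lid genes chosen by symbol. Its median RPKM was 2.63 in Flvcr-deleted (0 to 3268), 56.9 among wild-type (0 to 653) and 1.11 among EPO-treated cells (0 to 622). Psmd14 differed by -1.43 over all classes and by 0.92 in depth-matched cells.

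The chaperones of the base and the activators had smaller median differences than the base itself, -0.82 and -0.98. Of the chaperones, Psmd5 was lower at -1.91, with 33 of 48 wild-type and 7 of 48 Flvcr-deleted cells positive, and at -1.32 in depth-matched cells. Psmd9 (-0.82) and Psmd10 (0.09), the latter also known as gankyrin, were not called. Of the 4 activators, Psme1 was called lower at -1.87. Its difference was -4.73 in class A and between -1.10 and -0.76 in the other classes. Without class A Psme1 was not called (-0.91), and in depth-matched cells it differed by 0.61. Psme1 and Psme2 encode the interferon-inducible activator that caps the core in place of the regulatory particle. In class A, Psme2 was detected in 6 of 6 wild-type cells (RPKM 4.25 to 431, median 154) and 5 of 18 Flvcr-deleted cells. Psme2 differed by -4.92 there but by -0.54, 0.80 and 0.62 in B, C and D, and by 2.40 in depth-matched cells. Reads of Psme2 may be shared with the near-identical Psme2b, so its level is uncertain. Psme3, the nuclear activator, was the lowest of all members in depth-matched cells at -2.64, with a median RPKM of 0.148 in Flvcr-deleted (0 to 124) against 20.1 among wild-type cells (0 to 197). Psme4 differed by -0.62.

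**Figure D3:**
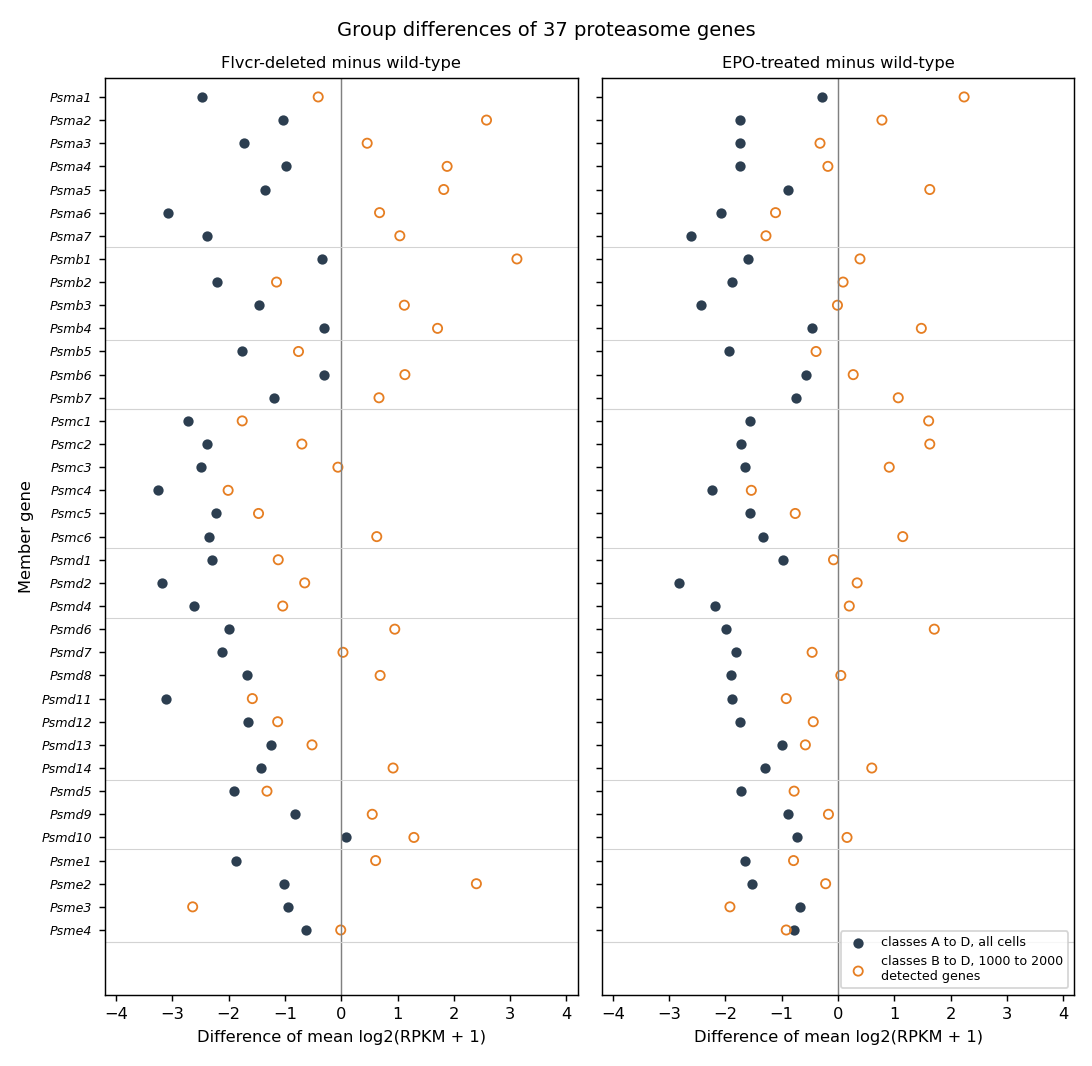
Points give the difference of mean log2(RPKM + 1) from wild-type cells for each of the 37 members that passed the filter, with Flvcr-deleted cells on the left and EPO-treated cells on the right. Filled points use classes A to D with equal weight and lie mostly below 0 (medians -1.76 and -1.66), and open circles use depth-matched cells (medians 0.46 and -0.01).

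Within single cells the base and lid took a lower median share of proteasome transcripts with Flvcr deleted in classes B, C and D. The share of base and lid genes in the summed RPKM of core, base and lid genes had medians of 28.3%, 18.3% and 34.0% in Flvcr-deleted cells of classes B, C and D. It was 44.1%, 45.9% and 56.6% among wild-type cells and 41.9%, 38.6% and 53.5% among EPO-treated cells. In these classes 25 of 30 Flvcr-deleted cells and 17 of 24 EPO-treated cells lay below the wild-type median of their class. The ranges overlapped: 0.230% to 69.8% in Flvcr-deleted, 20.6% to 72.3% among wild-type and 7.85% to 88.6% among EPO-treated cells. In depth-matched cells the medians were 24.0%, 57.0% and 40.9%. In class A they were 38.3%, 38.6% and 38.0%. Over the Flvcr-deleted class A cells with suffix a alone, the median was 29.4%. This share was added after the data were seen. It leaves out genes of the regulatory particle under other symbols, such as Shfm1, which is described below.

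With the ATPase genes alone the Flvcr-deleted medians were also the lowest of classes B, C and D. In class A theirs was the highest, at 20.2%, above a wild-type median of 15.0% and an EPO-treated median of 13.1%. That value included suffix d cells at 100% with only 1 or 2 members detected. Over the Flvcr-deleted class A cells with suffix a the median was 5.44%, below both other groups. Their share of ATPase and core RPKM had medians of 12.7%, 9.25% and 18.9% in Flvcr-deleted, 27.5%, 29.7% and 35.5% among wild-type and 24.4%, 24.8% and 35.7% among EPO-treated cells of classes B, C and D. Leaving out Psma7, Psmb2, Psmb3, Psmc2, Psmc3 or Psmd14 in turn, the 3 genes of each particle with the highest mean RPKM, gave 23.2% to 28.9% for the mean of the class medians in Flvcr-deleted, 44.9% to 51.6% among wild-type and 41.6% to 47.1% among EPO-treated cells. Transcript length moved with this result. Base and lid transcripts had a median length of 1614 nt and core transcripts of 1162 nt. The share of all kept genes other than globin in transcripts over 1500 nt had medians of 26.9%, 30.4% and 36.9% in Flvcr-deleted, 48.3%, 54.6% and 56.7% among wild-type and 38.4%, 51.3% and 54.2% among EPO-treated cells. Among all genes in depth-matched cells, the median Flvcr-deleted minus wild-type difference was 1.21 for transcripts of up to 1000 nt, 0.10 for 1000 to 1500 nt and -0.39 for longer ones.

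Within a narrower range of lengths the share of base and lid had a lower median with Flvcr deleted in classes B and C but not in D. With the 7 core and 10 base and lid genes of 1000 to 1800 nt, the medians for B, C and D were 29.5%, 24.8% and 61.1% in Flvcr-deleted, 62.1%, 57.0% and 55.9% among wild-type and 53.6%, 28.3% and 59.9% among EPO-treated cells. Of the Flvcr-deleted cells 15 of 16 in B, 9 of 9 in C and 2 of 5 in D were below the wild-type median. The part of length in the remaining difference was not tested.

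**Figure D4:**
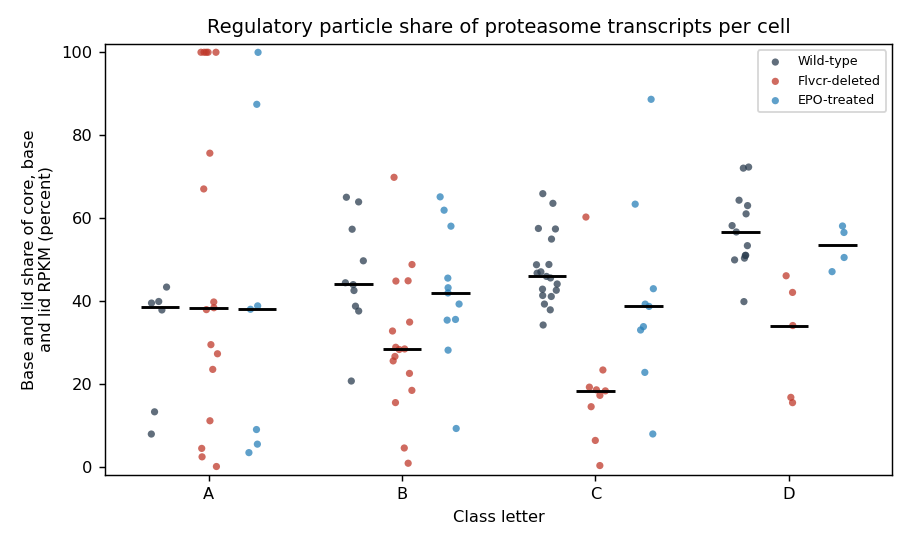
Each point is 1 cell, placed by class letter on the x axis and group by colour, with the base and lid share of core, base and lid RPKM in percent on the y axis and black bars for medians. Flvcr-deleted medians are 28.3%, 18.3% and 34.0% in classes B to D, below the wild-type medians of 44.1%, 45.9% and 56.6%. Class A medians are 38.3% in Flvcr-deleted (29.4% over suffix a cells alone), 38.6% among wild-type and 38.0% among EPO-treated cells.

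Of the immunoproteasome genes, Psmb8 was detected in class A alone, while Psmb9 was also detected in 1 of 42 wild-type cells of classes B to D and Psmb10 in cells of those classes in all 3 groups. In class A, Psmb8, which replaces Psmb5, was present in all 6 wild-type cells (exact binomial 95% interval from 54.1%), 4 of 7 EPO-treated cells (18.4% to 90.1%) and 2 of 18 Flvcr-deleted cells (1.38% to 34.7%). Both of these were among the 9 cells with the suffix a, whose median was 1381 detected genes, against 343 in the 9 with the suffix d and 2384 to 4047 in the wild-type cells. In classes B to D it was listed at 0 in all 42 wild-type, 30 Flvcr-deleted and 24 EPO-treated cells, which allows shares of cells detected at this depth of up to 8.41%, 11.6% and 14.2% by counting error. A gene listed at 0 may still be expressed, so these are no limits on the share of cells that express Psmb8. Psmb8 RPKM in class A was 5.88, 128 and 499.7 (lowest, median and highest) among wild-type cells and 0, 22.9 and 346 among EPO-treated cells, and the 2 Flvcr-deleted cells had 20.3 and 675. Psmb9, which replaces Psmb6, was detected in 3 wild-type and 2 EPO-treated cells and in 0 of 48 Flvcr-deleted cells (up to 7.40% by counting error, again for detection alone). Psmb10, which replaces Psmb7, was detected in 4 of 6, 2 of 7 and 3 of 18 class A cells of wild-type, EPO-treated and Flvcr-deleted mice and in 2 of 42, 3 of 24 and 1 of 30 cells of classes B to D.

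The immunoproteasome share of summed catalytic RPKM (Psmb8, Psmb9 and Psmb10 over these with Psmb5, Psmb6 and Psmb7) was high in class A of 2 groups. In class A cells with any of these genes detected, it was 17.6%, 63.2% and 98.8% (lowest, median and highest) over 6 wild-type cells and 0%, 71.8% and 97.7% over 5 EPO-treated cells. It was 0%, 0% and 100% over 9 Flvcr-deleted cells. In classes B to D the median was 0% in each group, with a highest value of 11.2% among wild-type, 9.73% among EPO-treated and 13.7% in Flvcr-deleted cells.

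The class A cells with Psmb8 were low in globin and, in part, carried myeloid genes. Globin took at most 0.199% of summed RPKM in the 6 wild-type, 2.58% in the 4 EPO-treated and 1.10% in the 2 Flvcr-deleted cells with Psmb8, and 1.26% to 38.4% and 0.625% to 89.5% in the class A cells of the latter groups without it. Of 14 markers of granulocytes and monocytes, at least 3 were found in 2 of the 6 wild-type, 2 of the 4 EPO-treated and 1 of the 2 Flvcr-deleted cells with Psmb8, and in 0 of the 3 EPO-treated and 16 Flvcr-deleted class A cells without it. Their summed RPKM in class A was 0 to 3569 (median 1324) among wild-type, 0 to 12355 (254) among EPO-treated and 0 to 599 (0) in Flvcr-deleted cells, with S100a8, S100a9, Ngp, Ltf and Cebpe under 1 RPKM in every cell. At least 3 markers of B cells, T and NK cells, macrophages or megakaryocytes were detected in 0 of the cells with Psmb8. Nkg7, of the T and NK cell list, was the only marker of that list detected in class A, in 3 of 6 wild-type (highest RPKM 938.7), 2 of 7 EPO-treated (2345) and 1 of 18 Flvcr-deleted cells (858.7). The part of such cells in the class A values was not tested. Class A cells without Psmb8 also had a lower median of detected genes. It was 732 (169 to 3069) in Flvcr-deleted and 1347 (1033 to 1464) among EPO-treated cells. With Psmb8 it was 1425 (1399 to 1451) and 2121 (1450 to 2553). The part of detected genes in the missing markers was not tested.

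**Figure D5:**
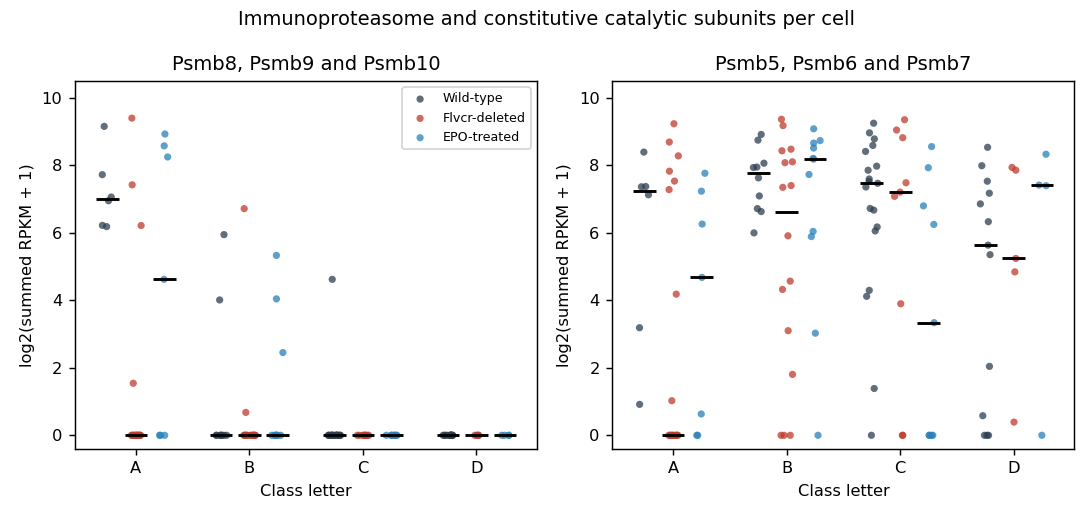
Each point is 1 cell by class letter (x axis) and group (colour), with log2(summed RPKM + 1) of Psmb8, Psmb9 and Psmb10 on the left and of Psmb5, Psmb6 and Psmb7 on the right, and black bars for medians. The immunoproteasome sum is above 0 in all 6 wild-type class A cells and at 0 in every class D cell of the 3 groups, while the constitutive genes are detected in all classes.

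EPO-treated cells were also lower than wild-type cells in most members. By the same rule 21 of 37 members (56.8%) were lower, against 35.2% of all genes, and 0 were higher, against 0.236%. The medians were -1.66 over the members and -1.02 over all genes. In classes B to D 22 were lower (42.0% of all genes) and 0 higher (0.512%). By list the medians were -1.75 for the alpha ring, -1.74 for beta genes without an active site, -0.74 for the catalytic genes, -1.61 for the ATPases, -2.19 for the other base genes and -1.81 for the lid. Core genes as a whole had a median of -1.75 and base and lid genes of -1.73. The largest differences were those of Psmd2 (-2.83), Psma7 (-2.62), Psmb3 (-2.44) and Psmc4 (-2.23). In depth-matched cells 2 members were lower, Psma6 (-1.11) and Psme3 (-1.92), against 14.0% of all genes, and 3 were higher, Psma1 (2.24), Psma5 (1.63) and Psmc2 (1.63), against 7.99%. The medians there were -0.01 and -0.06. This comparison shares its wild-type cells with that of the Flvcr-deleted cells. Cells of 1 letter had a lower median of the normalised Ter119 value after EPO than among wild-type cells, as given above. These values may not compare between chips, and the part of Ter119 in these differences was not tested.

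Between Flvcr-deleted and EPO-treated cells few members were called. Psma1 (-2.21) and Psmc4 (-1.03) were lower in Flvcr-deleted cells (6.26% of all genes) and Psmb1 (1.25) was higher (2.44% of all genes). The medians were -0.21 over the members and -0.26 over all genes. In classes B to D, Psma1, Psmc2, Psmc3 and Psmd1 were lower (8.86%) and Psma2, Psma4 and Psmb1 higher (7.76%). In depth-matched cells Psma1 and Psmc2 were lower (7.64%) and Psma2, Psma7, Psme1 and Psme2 higher (9.92%). The ATPase list had a median of -0.93, with 1 of 6 called, and the beta genes without an active site 0.56. Values of EPO-treated cells were deposited with 2 decimals while those of the other groups were not, and whether they were processed apart is not given in the sources used here.

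Over all cells, most members were lower in class D than B in wild-type and EPO-treated cells, but not in depth-matched wild-type cells. Here a size of at least 1 alone makes a call. In wild-type cells 26 of 37 members were lower in D (46.1% of all genes) and 0 higher (5.39%), with a median of -1.82 against -0.90. In EPO-treated cells 27 were lower (58.3%) and 2 higher (10.9%: Psmc3 and Psmd13), and the medians were -2.36 and -1.36. In Flvcr-deleted cells 15 were lower (30.6%) and 6 higher (13.5%), and the medians were -0.72 and -0.43. Without the 4 such cells in which Alas2 was at 0 (classes B to D), 8 were lower (13.5% of all genes) and 13 higher (20% of all genes), so the larger count turned from lower to higher for the members and for all genes. In depth-matched cells the members' medians were 0.04 in 4 class B and 4 class D Flvcr-deleted cells (7 lower, 14 higher) and -0.50 over 2 and 8 wild-type cells (15 lower, 11 higher). For EPO-treated mice it was -1.04 over 5 and 2 cells (19 lower, 10 higher). Of all genes, 22.3%, 23.9% and 38.4% were lower there and 24.9%, 24.8% and 25.6% higher. Median detected genes in classes B and D were 3034 and 1891 among wild-type, 1771 and 1088 among EPO-treated and 1235 and 1214 in Flvcr-deleted cells.

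In wild-type cells the core had a larger median difference between classes D and B than the base and lid. All but 1 of its 14 genes that passed the filter, Psma5 (-0.22), were lower in class D, with a median of -2.50. Base and lid had a median of -1.28, with 9 of 16 lower. Of all genes 46.1% were lower. For this contrast no depth-matched values are given, and the part of detected genes and of transcript length was not tested. Psmb6, whose promoter is shown above, differed by -3.59 between D and B, with RPKM of 0, 67.5 and 252 (lowest, median and highest) in 10 class B cells and 0, 0 and 213 in 13 class D cells. In Flvcr-deleted cells Psmb6 was 0, 0 and 359.7 in 16 class B cells and 0, 23.8 and 219 in 5 class D cells, a difference of 1.49. In EPO-treated cells the core median was -2.68 and that of base and lid -1.81. In Flvcr-deleted cells they were -0.51 and -0.79.

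Of the 8 members below the level filter, Psmb8, Psmb9 and Psmb10 are described above. Psmd3, a lid scaffold, was detected in 6 of 48 Flvcr-deleted, 6 of 48 wild-type and 3 of 31 EPO-treated cells. Psma8, the alpha gene of the testis proteasome, was detected in 1 EPO-treated cell. Psmb11, the catalytic gene of the thymus proteasome, and Psme2b were listed at 0 in all 127 cells. Psmc3ip encodes a meiotic recombination factor and no proteasome subunit. It was detected in 6, 14 and 4 cells of the 3 groups in the order Flvcr-deleted, wild-type, EPO-treated.

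Other genes of the pathway, outside the symbols chosen, were taken from fixed lists of 24, of which 23 were in the table and 12 passed the filter. In Flvcr-deleted minus wild-type cells, 0 of 2 core assembly genes were called, Pomp (-0.13) and Psmg2 (-0.67). In depth-matched cells Pomp, the maturation factor of the core, was higher at 3.96 and Psmg2 differed by -0.58. Of 7 further subunits and partners of the regulatory particle 4 were lower, beside 44.6% of all genes, with a median of -1.49. In depth-matched cells 2 of them were lower and 1, Shfm1 (2.66), was higher, with a median of -0.65. Those with the largest differences were Txnl1 (-2.41, and -0.65 when depth-matched), a thioredoxin bound to the regulatory particle, and Psmf1 (-2.39, and -2.29), an inhibitor of the core. Shfm1 had a mean log2 level of 4.50, above that of any base or lid member (Psmc3, 4.14). It differed by -0.40 over all classes and by 0.76 in classes B to D. None of these 7 genes entered the base and lid counts or share given above. Vcp, the ATPase that extracts ubiquitinated proteins, was lower at -2.19 and in depth-matched cells at -1.38. The factors Nfe2l1 and Nfe2l2, known to drive proteasome genes, did not pass the filter, and Nfe2l1 was detected in 3, 3 and 0 and Nfe2l2 in 8, 15 and 5 cells of the 3 groups in the order above.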

How the data were processed

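Single cells were processed on the C1 system with SMART-Seq amplification and Nextera XT libraries, per the labels' protocols. The authors deposited RPKM values for all cells in 1 table. The submitters' processing notes name TopHat2 2.0.9 and mm9. How reads were counted or cells filtered is not given in the sources used here. Columns of 4 cells that belong to no sample were not used. Values were taken as log2(RPKM + 1), which understates changes of low genes. Exact zeros can be failed estimates, so ranges and numbers at 0 are given in place of means with SDs. Any member above a mean log2 level of 1 could be named; full values were given to the highest and the most different member of each role list, and members singled out beyond that were chosen after their values were seen. Members, lists and the range of detected genes were chosen with earlier results of these data known. Reads per cell were estimated from the most common low product of RPKM and transcript length, taken as 1 read. Transcript lengths came from GENCODE vM21 by RefSeq identifier (97.6% of table entries), taking the shortest match. No 2 cells had identical values. The scripts, in Python 3.11.15 with pandas 2.3.3, numpy 2.4.6 and scipy 1.17.1, were tested on simulated data. Alternatives changed the pseudocount, filter, scaling, classes, cells and rows. The result of 1 further pathway list is not reported here.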

Additional observations from a re-analysis of the deposited data

Results flagged for a closer look

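For 4 members the change from class B to class D had opposite signs in different groups, with a size of at least 1 in each. How many of all genes met this rule is not given here. Of all genes, 13.5% were higher in class D in Flvcr-deleted cells. In wild-type cells 46.1% of all genes were lower in class D, and in EPO-treated cells 58.3%. Psmb3, a beta ring gene, differed by 1.23 with Flvcr deleted, -3.23 among wild-type and -4.42 among EPO-treated cells. Psmb6 differed by 1.49 in Flvcr-deleted and -3.59 in wild-type cells. Psmd10 differed by 2.26 in Flvcr-deleted, -1.87 among wild-type and -2.36 among EPO-treated cells, and was detected in 4 of 5 Flvcr-deleted class D cells and 4 of 16 class B cells. Psmd6, a lid gene, differed by 1.13 in Flvcr-deleted, -1.62 among wild-type and -3.58 among EPO-treated cells. These differences between groups were not tested, since each group is 1 sample, and Flvcr-deleted class D held 5 cells and EPO-treated class D 4.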

How the results depend on the processing

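No paired analysis was possible because cells are not replicates, each group is 1 sample and the results come from no test. The group differences depended most on the cells chosen. In depth-matched cells the Flvcr-deleted minus wild-type median was 0.46, with 6 lower and 5 higher. For EPO-treated minus wild-type it was -0.01, with 2 and 3. For Flvcr-deleted minus EPO-treated it was 0.06, with 6 called. For class D minus B it was 0.04 in Flvcr-deleted (7 lower, 14 higher) and -0.50 among wild-type cells (15 lower). There wild-type cells had 17.3 members detected and a proteasome share of 0.113%. Over all genes the Flvcr-deleted minus wild-type median moved from -1.21 over all classes to -0.09 in depth-matched cells. For EPO-treated minus wild-type cells it moved from -1.02 to -0.06. How many of all genes changed sign is not given here. In depth-matched cells the sign of 19 of 37 members differed from that over all classes for Flvcr-deleted and of 18 for EPO-treated minus wild-type cells. Of these, 5 and 6 were under 1 in size over all classes. The other 14 in Flvcr-deleted cells were Psma2 (2.58), Psma3 (0.46), Psma5 (1.82), Psma6 (0.68), Psma7 (1.04), Psmb3 (1.12), Psmb7 (0.67), Psmc6 (0.63), Psmd6 (0.95), Psmd7 (0.03), Psmd8 (0.69), Psmd14 (0.92), Psme1 (0.61) and Psme2 (2.40). The other 12 in EPO-treated cells were Psma2 (0.78), Psmb1 (0.39), Psmb2 (0.09), Psmc1 (1.61), Psmc2 (1.63), Psmc3 (0.91), Psmc6 (1.15), Psmd2 (0.34), Psmd4 (0.20), Psmd6 (1.71), Psmd8 (0.05) and Psmd14 (0.60). Under the ratio of mean RPKM, Psma2 (0.04), Psma5 (0.01), Psmb3 (0.37) and Psme2 (0.58) turned in Flvcr-deleted cells, as did Psme2 without class A (0.29). That ratio gave 9 lower in Flvcr-deleted and 5 among EPO-treated cells (median -1.02), 17 lower in wild-type class D, and 6 called at a median of 0.33 between Flvcr-deleted and EPO-treated cells. A pseudocount of 10 gave 13 lower (-0.87) and 5 lower (-0.77) against wild-type and 1 called between the others. For class D minus B it gave 6 lower and 1 higher in Flvcr-deleted and 16 lower in wild-type cells. A pseudocount of 0.1 gave medians of -2.92 and -2.56 against wild-type. Quantile normalization gave 15 lower in Flvcr-deleted, 10 lower in EPO-treated (median -1.06), and 9 lower and 11 higher in Flvcr-deleted class D. Scaling to 1 sum of RPKM gave 2 higher in Flvcr-deleted class D, and 10 without globins. Between Flvcr-deleted and EPO-treated cells the count called was 7 after scaling to 1 sum, with every cell weighted alike and in classes B to D (median 0.08), 6 without class C and 5 without class D. The median was 0.00 without class B and 0.10 without the suffix d cells. Without cells with Alas2 at 0 in classes B to D, an alternative chosen after seeing the data, Flvcr-deleted class D had 8 lower and 13 higher. ATPases alone gave a wild-type regulatory particle share of 30.9%, where base and lid together gave 48.9%. The cause of these changes was not tested. For the ratio, pseudocounts, quantile normalization, scaling, cell weights and single classes left out, the shares of all genes called are not given here. Counts of members under those settings therefore do not set the members apart from all genes. Depth limits any statement on single members, since a value at 0 in a cell with few detected genes does not show absence.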
